A study of Mus musculus with 32 samples.

Results

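Platinum damage and its repair were compared between the strands of genes in the lung of mice given cisplatin. The values came from 4 of the 32 libraries of the series, chosen by their labels: 2 Damage-seq and 2 XR-seq libraries of lung, and in each of them reads on the transcribed strand (TS) of a gene were set against reads on its non-transcribed strand (NTS). The animals were wild-type C57BL/6J female mice of 6 to 7 months, which received cisplatin by intraperitoneal injection at a dose of 10 mg per kg. The time after treatment is 2 h in the sample labels and 4 h in the written protocol, so it is not certain. Kidney, liver and spleen of mice treated in the same way gave 2 libraries each in either assay and served for comparison. No library of either assay came from an untreated animal, so the damage ratio has no background without the drug here. RNA-seq of lung from 2 cisplatin-treated and 2 saline-treated (control) samples gave the RNA level of each gene. The study's methods keep the chromatin pellet of the XR-seq tissue for Damage-seq, so both assays can share an animal, but labels do not say whether libraries with the same number did. The p-values of single genes rest on the spread between libraries, partly pooled over genes. In Damage-seq most of the weight lay on the pooled spread, so disagreement between the 2 lung libraries of a gene counted little.

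Cisplatin joins neighbouring guanines, mostly as a GG intrastrand crosslink, so a strand can carry such an adduct wherever it reads GG. Nucleotide excision repair cuts out the adduct within a short oligomer. In its global branch XPC finds adducts on either strand of the genome, and in its transcription-coupled branch RNA polymerase II stalls at an adduct on the TS and calls in the repair factors CSA and CSB. Damage-seq reads the position of adducts still in the DNA, and XR-seq reads the oligomers that were cut out, so an active gene is known for much repair and little remaining damage on its TS.

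The unit behind every ratio is the GG count of each strand. The coding stretches below, each of 120 bases of coding exon from the GRCm38 genome, show this for the gene with the highest XR-seq ratio, a gene with one of the lowest Damage-seq ratios, the gene ranked first over both assays, and the gene with the lowest XR-seq ratio by the rules given with each result. They are written 5′ to 3′ as the RNA reads, which is the NTS. Capitals mark GG, a possible adduct site on the NTS, and CC, which is GG on the TS.
Cwc22, chr2:77896235-77896354, minus strand: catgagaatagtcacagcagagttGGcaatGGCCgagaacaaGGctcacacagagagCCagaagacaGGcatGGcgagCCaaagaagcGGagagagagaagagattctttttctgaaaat
Per1, chr11:69106702-69106821, plus strand: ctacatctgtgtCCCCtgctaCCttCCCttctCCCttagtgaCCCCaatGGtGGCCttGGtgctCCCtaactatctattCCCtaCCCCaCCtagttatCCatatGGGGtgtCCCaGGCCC
Rexo1, chr10:80550140-80550259, minus strand: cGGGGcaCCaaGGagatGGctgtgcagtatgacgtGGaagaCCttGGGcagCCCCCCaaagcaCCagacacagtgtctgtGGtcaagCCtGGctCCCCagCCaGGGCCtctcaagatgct
Zdhhc22, chr12:86988354-86988473, minus strand: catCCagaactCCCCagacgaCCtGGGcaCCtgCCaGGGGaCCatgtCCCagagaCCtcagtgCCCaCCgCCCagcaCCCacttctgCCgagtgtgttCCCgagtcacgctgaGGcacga
Over short stretches the strands can be far from equal, with 7 GG on the NTS and 25 on the TS in the Per1 stretch. Over the whole gene they are close, with 1331 on the NTS and 1493 on the TS of Per1, 3071 and 2997 in Cwc22, 1793 and 2065 in Rexo1, and 784 and 810 in Zdhhc22. All strand ratios below are reads per GG on the TS over reads per GG on the NTS, on a log2 scale, so that 0 means equal strands.

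Of 25058 genes in the files of all assays, 22083 were shorter than 100 kb and held at least 10 GG on each strand. Of these, 5760 had under 20 lung reads in at least 1 of the assays and were left out. That left 16323 genes, 13884 of them protein-coding. The XR-seq libraries held 59761739 and 42604862 reads on genes, and the Damage-seq libraries 5326188 and 6049997. The median gene had 881 TS and 86 NTS reads in XR-seq lung 1, 652 and 65 in XR-seq lung 2, 37 and 52 in Damage-seq lung 1, and 44 and 62 in Damage-seq lung 2. XR-seq thus measured single genes more deeply than Damage-seq, but its NTS counts in lung 1 came in coarse steps: 539 genes had 2 to 9 NTS reads there and 2863 had 10 to 29, against 2838 and 3551 in lung 2. The reads of that library cannot be taken as independent molecules, and 1303 tested genes had 0 NTS reads in it against 163 in lung 2. The lung markers fitted the label: RNA of Sftpc, the surfactant protein of alveolar type II cells, stood at 17080 and 13780 RPKM in the 2 cisplatin lung samples against at most 6.24 in the other organs. Myh6, a heart muscle gene, was present at 14.5 and 11.5 RPKM in the lung samples and close to 0 in the other organs, and its part in the strand ratios was not tested.

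Repair in lung lay mostly on the TS. Of all XR-seq reads on genes, 90.02% in lung 1 and 89.67% in lung 2 were on the TS, and the median gene had a log2 TS/NTS of 3.29 and 2.88. Damage lay slightly more on the NTS. The TS took 45.72% of Damage-seq reads in lung 1 and 45.43% in lung 2, with median log2 ratios of -0.33 and -0.34. The TS was the higher strand in XR-seq for 80.2% and 80.9% of genes, and the lower strand in Damage-seq for 69.2% and 70.9%. The spread between genes was far wider in repair, where the middle 80% of genes ran from -2.27 to 6.28 in lung 1 and from -1.35 to 5.73 in lung 2, than in damage, where it ran from -1.39 to 0.51 and from -1.37 to 0.47. The mean of the lung medians in XR-seq, 3.08 ± 0.29 (SD, n = 2), was higher than the mean of 2.42 over the 6 other libraries. Their medians ran from 1.90 to 2.86. The groups did not overlap, but only just: lung 2 was at 2.876, spleen 1 at 2.862 and spleen 2 at 2.795. The exact two-sided permutation test over libraries gave p = 0.0714, adjusted 0.143 over both assays, where the smallest p possible is 0.0357. In Damage-seq, lung was at -0.34 and the other organs at -0.35 (exact permutation p = 0.893).

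**Figure D1:**
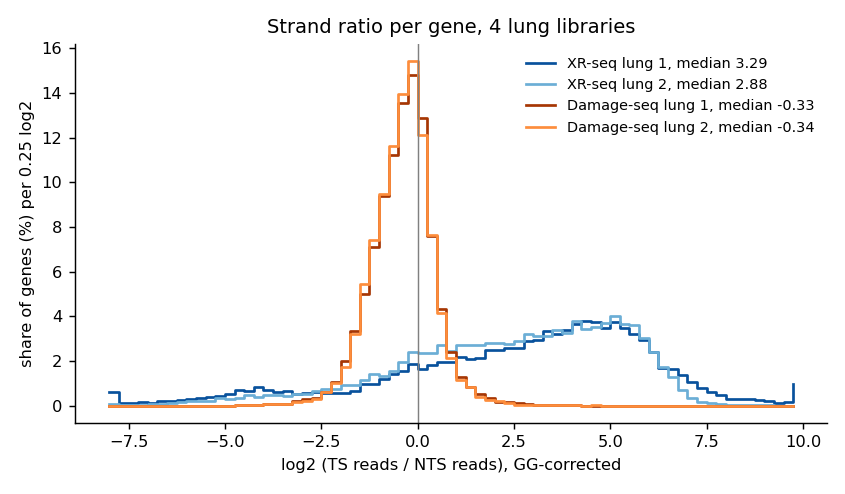
Distribution of the log2 TS/NTS ratio over 16323 genes in each of the 4 lung libraries, with the ratio on the x axis and the share of genes per bin on the y axis. The end bins hold values beyond the axis. The XR-seq curves are broad with medians of 3.29 and 2.88, and the Damage-seq curves are narrow with medians of -0.33 and -0.34.

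Gene by gene, the TS was above the NTS in XR-seq for 9886 genes (60.6% of those tested) and below it for 1078 (6.6%), by edgeR's quasi-likelihood test at a Benjamini-Hochberg adjusted p under 0.05. In Damage-seq the TS was below the NTS for 4610 genes (28.2%) and above it for 262 (1.61%). These calls are against equal strands. Every TS and NTS column was then scaled by a trimmed mean over genes instead, here called scaling to the typical gene. The XR-seq split became 4891 above and 3474 below, and the Damage-seq split 2168 above and 2127 below. These are calls against that typical gene and not against equal strands.

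The strongest repair asymmetry belonged to genes whose NTS oligomers were nearly missing. The 10 genes named by rule had at least 1000 XR-seq reads, at least 20 of them on the NTS, and the highest fitted ratios. They were Cwc22, a splicing factor, Prkcsh, a subunit of the glucosidase of the endoplasmic reticulum, Polr3a, the largest subunit of RNA polymerase III, Tfdp1, the partner of E2F factors, Cep89, a centriole protein, Pikfyve, a lipid kinase of endosomes, Wfs1 and Ergic3, membrane proteins of the secretory pathway, Iars, a tRNA synthetase, and Zkscan5, a zinc finger protein. Cwc22 (chr2:77881159-77946375) had 5903 TS reads against 0 on the NTS in lung 1, and 4246 against 29 in lung 2. Its fitted log2 ratio was 8.74 ± 1.07 (SE, edgeR adjusted p = 0.000169). Polr3a had the smallest error of the 10, with 6977 TS and 6 NTS reads in lung 1, 5413 and 33 in lung 2, and a log2 ratio of 8.51 ± 0.68 (edgeR adjusted p = 1.55e-05). All 10 ratios lay between 8.24 and 8.74, apart by less than their standard errors, so the order among them is not resolved. In lung 1 these genes had 0 to 6 NTS reads and in lung 2 21 to 55, and the size of the ratio therefore rests on few reads of the NTS. Of all genes with an XR-seq ratio of 5 and over, 54.62% were called in Damage-seq with the TS below the NTS. Among the 10 genes named here 8 were. Cep89 (-0.33, edgeR adjusted p = 0.182) and Zkscan5 (-0.22, edgeR adjusted p = 0.663) were not.

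The strongest damage asymmetry belonged to 10 other genes, none of them among the 10 strongest in repair. Ube2d2a, a ubiquitin-conjugating enzyme, had 22 TS and 85 NTS reads in Damage-seq lung 1 and 13 and 113 in lung 2, a log2 ratio of -2.42 ± 0.30 (edgeR adjusted p = 4.83e-11). Per1, a core gene of the circadian clock (chr11:69095217-69109960), had 13 against 84 and 36 against 116, a log2 ratio of -2.22 ± 0.26 (edgeR adjusted p = 3.87e-12). Rad23b, which holds XPC as a partner in damage recognition, had 24 against 131 and 33 against 155, a log2 ratio of -2.14 ± 0.25 (edgeR adjusted p = 5.02e-12). In each of these genes the TS was lower in both libraries, and the NTS held at least 3 reads for every TS read. The other 7 genes were Fkbp1a, the binding protein of rapamycin, Tab2, an adaptor of TAK1 signalling, Hp1bp3, a linker histone relative, Adnp, a chromatin factor, Rab5c, a GTPase of early endosomes, 1810013L24Rik, and Midn, a nuclear protein linked to the proteasome. Their ratios lay between -2.19 and -2.01. The standard errors of all 10 were 0.25 to 0.32, larger than most gaps between neighbours. The XR-seq ratios of these 10 genes lay between 3.16 and 6.02, and all 10 were called with the TS above the NTS. So were 96.42% of all genes called with the TS below the NTS in Damage-seq. RNA of 9 of the 10 lay between 7.12 and 119 RPKM, and that of Adnp at 0.124 RPKM.

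The genes ranked best over both assays combined the features. Rexo1, an RNA exonuclease relative that binds elongin (chr10:80540922-80561560), led. Its XR-seq reads were 13678 on the TS and 49 on the NTS in lung 1 and 8750 and 59 in lung 2, a log2 ratio of 7.46 ± 0.47 (edgeR adjusted p = 5.34e-06). Its Damage-seq reads were 28 against 92 and 34 against 113, a log2 ratio of -1.92 ± 0.27 (edgeR adjusted p = 2.15e-09). Next were Ahcyl1, a regulator of the IP3 receptor, Anapc1, the largest subunit of the anaphase-promoting complex, Zc3h13, a subunit of the m6A writer complex, Epn1, an endocytic adaptor, and Glrx3, a glutaredoxin. Their XR-seq ratios lay between 7.11 and 7.81 and their Damage-seq ratios between -1.75 and -1.47. Anapc1 was the best measured of these in Damage-seq, with 63 TS and 202 NTS reads in lung 1 and 63 and 261 in lung 2.

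**Figure D2:**
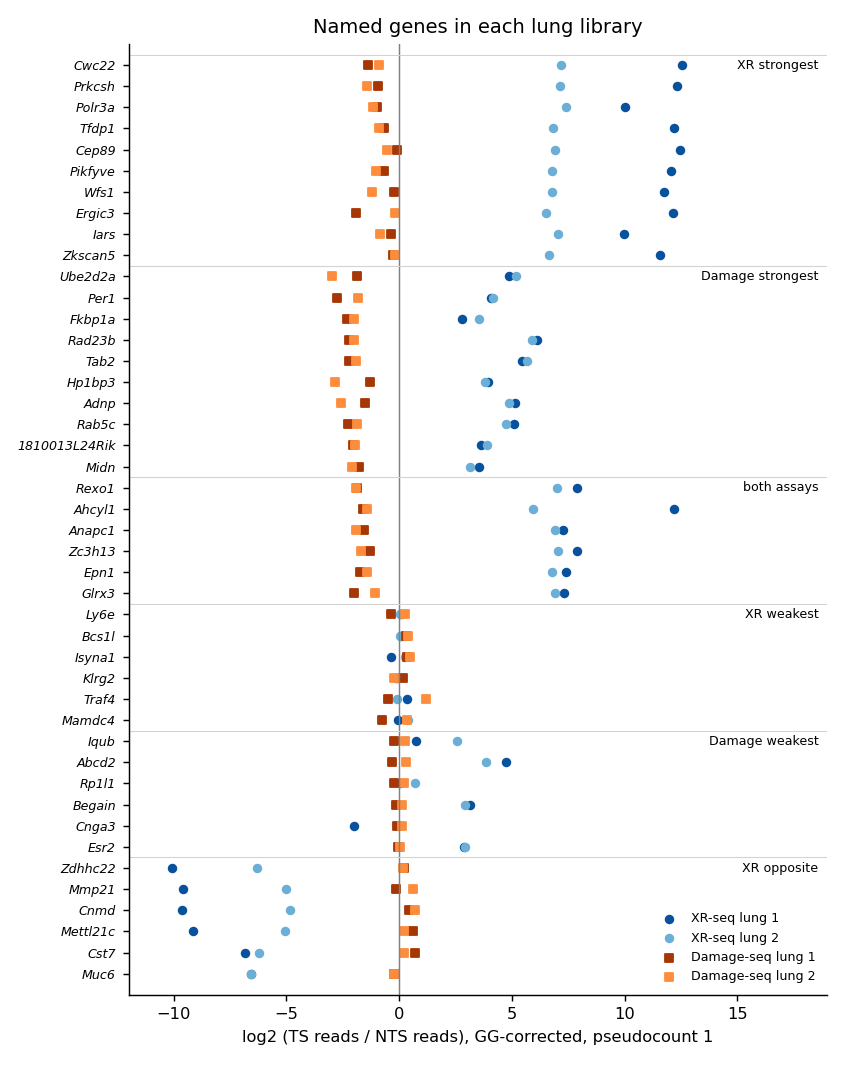
Log2 TS/NTS of the named genes in each lung library, with XR-seq and Damage-seq shown apart and the genes grouped by the rule that named them. Points are single libraries with a pseudocount of 1 read. In the set strongest in damage both Damage-seq points of every gene lie below 0, and in the set opposite in repair both XR-seq points of every gene lie below 0.

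Weak asymmetry in repair did not always mean little repair, although over all genes it went with less repair on the TS. With XR-seq lung 1 reads scaled to library total and GG count, the median gene at a fitted ratio of 0 to 1 had 1.80 on the TS and 1.34 on the NTS. At a ratio of 5 and over these were 39.5 and 0.56. The genes named here were drawn only from those with much repair, so their high repair was set by the rule. Among the 25% of genes with the most XR-seq reads per GG, the ratios nearest to 0 belonged to Ly6e, an interferon-induced surface protein, Bcs1l, an assembly factor of respiratory complex III, Isyna1, the enzyme that makes inositol, Klrg2, a lectin-like receptor, Traf4, a signalling adaptor, and Mamdc4, an endosomal protein. Traf4 had 2784 TS and 1881 NTS reads in lung 1 and 1657 and 1495 in lung 2, a log2 ratio of 0.13 ± 0.22 (edgeR adjusted p = 0.627). Ly6e had 1395 and 1001, then 880 and 654, at an RNA level of 324 RPKM. Its log2 ratio of 0.05 ± 0.91 has an error too wide to place it apart from many other genes. Scaled to the typical gene, 4 of these 6 took the opposite sign, Ly6e at -2.79, Bcs1l at -2.78, Traf4 at -2.70 and Mamdc4 at -2.67. None of the 6 was called in Damage-seq, where they had between 38 and 173 reads over both libraries.

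In damage, the most even genes with at least 400 reads were Iqub, a ciliary protein, Abcd2, a peroxisomal transporter, Rp1l1 and Cnga3, genes of photoreceptors, Begain, a postsynaptic protein, and Esr2, the estrogen receptor beta. Rp1l1 had 157 TS and 178 NTS reads in Damage-seq lung 1 and 184 and 157 in lung 2, and Cnga3 157 and 166, then 151 and 137. The strand that was higher changed between the 2 libraries in 5 of the 6 genes by read count, and the fitted ratios were all within 0.01 of 0 with standard errors of 0.16 to 0.21. Their RNA was at most 4.13 RPKM. In XR-seq, Begain (3.04 ± 0.45, edgeR adjusted p = 0.000482) and Abcd2 (4.34 ± 0.99, edgeR adjusted p = 0.0051) had the TS above the NTS, so even damage and uneven repair occurred in the same gene. Rp1l1 had 111 and 106 XR-seq reads, then 94 and 57, and Cnga3 9 and 38, then 24 and 24.

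A smaller group had its repair on the NTS. The 6 lowest XR-seq ratios among called genes with at least 1000 reads were those of Zdhhc22, a palmitoyltransferase, Mmp21, a matrix metalloproteinase, Cnmd, a cartilage inhibitor of vessel growth, Mettl21c, a methyltransferase of muscle, Cst7, a cystatin of immune cells, and Muc6, a gastric mucin. Zdhhc22 (chr12:86980763-86990430) had 0 TS against 1023 NTS reads in lung 1 and 8 against 689 in lung 2, a log2 ratio of -7.96 ± 1.72 (edgeR adjusted p = 0.00387). Muc6 had 41 against 2865 and 30 against 2116, a log2 ratio of -6.61 ± 0.39 (edgeR adjusted p = 3.94e-06). The RNA of 5 of these genes was under 0.3 RPKM and that of Cst7 was 1.93. None was called in Damage-seq, where 5 of the 6 ratios were above 0 and that of Muc6 was -0.22.

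These genes lie beside a gene read from the other strand. By the naming rule no annotated gene overlaps them, so the distance to the nearest opposite-strand gene was measured. That comparison was chosen after their values had been seen. For each of the 6 the nearest such gene had at least 1 RPKM and lay past the 3′ end. Ap2a2 was 0.445 kb from Muc6, Edrf1 1.30 kb from Mmp21 and Sugt1 2.49 kb from Cnmd. Apmap was 4.14 kb from Cst7, Tpp2 6.41 kb from Mettl21c and Cipc 15.4 kb from Zdhhc22. Over all 8463 protein-coding genes without an overlap, 31.8% had an opposite-strand gene at or above 1 RPKM within 10 kb. Among the 259 of them with the TS below the NTS in XR-seq, 195 had one (75.29%), and for 185 it lay past the 3′ end. Among the 5743 with the TS above, the share was 32.54%, and for 977 of these 1869 genes it lay past the 3′ end. Over all 8463 genes it lay there for 1605 of 2691. Genes under 1 RPKM were also grouped by the distance to the nearest opposite-strand gene, whatever the RNA level of that neighbour. The share with the TS below the NTS in XR-seq was 18.87% with the neighbour closer than 2 kb. It was 13.32% at 2 to 10 kb, 3.89% at 10 to 50 kb and 0.482% beyond. The shares are descriptions, and whether reads past the end of the neighbour enter the count was not tested. Annotated overlaps moved with the same direction. Genes with an overlapping opposite-strand gene had the TS below the NTS in XR-seq in 11.48% of 6768 cases against 3.15% of 9555 without one. The 720 genes annotated as antisense had XR-seq medians of -1.95 and -1.56, 40.42% of them with the TS below the NTS, and Damage-seq medians of 0.11 and 0.11.

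Both assays were set side by side for every gene. Of the 4610 genes with less damage on the TS, 4445 also had more repair there, which is 96.42% of the Damage-seq calls, 44.96% of the 9886 XR-seq calls and 27.2% of all genes tested. A further 5415 genes had the asymmetry in XR-seq alone. Their median Damage-seq count over the 2 libraries was 181 reads against 279 in the genes called in both, their median length 16.35 kb against 29.81 kb, and their median RNA 4.80 against 10.8 RPKM, so depth, length and RNA level moved together with the second call. Neither assay gave a call for 5096 genes, which had a median RNA level of 0.117 RPKM. The mirror image, more repair on the NTS and more damage on the TS, held for 122 genes, of which 111 (90.98%) overlap an opposite-strand gene and 53 are annotated as antisense. Only 16 genes had less of both on the TS, and 26 had more of both. Among the 26 were Ly86, a partner of the Toll-like receptor relative RP105, at log2 2.52 in XR-seq and 0.50 in Damage-seq and Hoxc5, a homeobox gene, at 0.94 and 0.33. These genes were picked after their values had been seen.

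**Figure D3:**
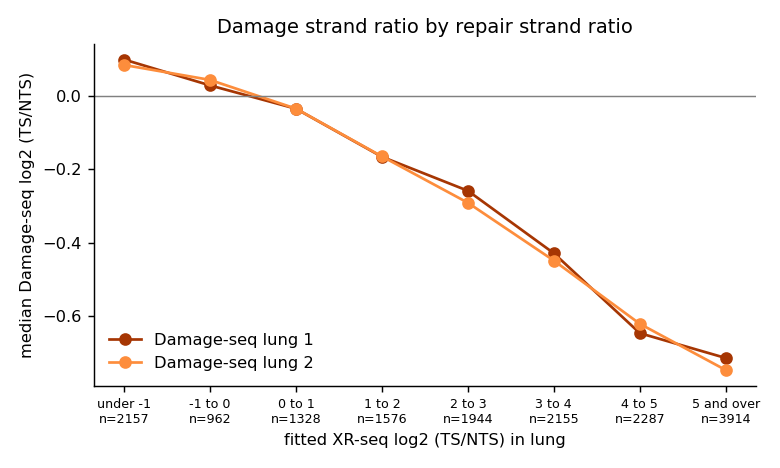
Median Damage-seq log2 TS/NTS of the 2 lung libraries in 8 groups of genes by their fitted XR-seq log2 TS/NTS, 16323 genes in all. The points fall from left to right, with the median Damage-seq ratio of lung 1 at 0.10 where the XR-seq ratio is under -1 and at -0.71 where it is 5 or above.

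The damage ratio was lower where the repair ratio was higher. Grouped by the fitted XR-seq ratio, the median Damage-seq log2 ratio was 0.10 in lung 1 and 0.08 in lung 2 for 2157 genes below -1, -0.17 in both for 1576 genes between 1 and 2, -0.43 and -0.45 for 2155 genes between 3 and 4, and -0.71 and -0.75 for 3914 genes at 5 or above. The share with the TS below the NTS in Damage-seq went from 2.09% to 54.62% over the same groups. Across genes, Spearman's rho between an XR-seq and a Damage-seq library lay between -0.468 and -0.379. It was 0.874 between the XR-seq libraries and only 0.465 between the Damage-seq libraries. The strongest pair across assays, at -0.468, was thus about as large in size as the pair of Damage-seq libraries. In the 6982 genes with at least 200 reads in each assay, these values were 0.926, 0.665, and between -0.529 and -0.460. Genes are not independent replicates, the libraries of an assay share their protocol, and no p is given.

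RNA level ordered both ratios. Genes were split into the 714 with no RNA read in lung and 5 groups of about equal size of the rest, with bounds at 0.179, 1.86, 5.88 and 15.1 RPKM. The RNA comes from the whole organ, so fewer cells of a type and less RNA per cell cannot be told apart. In XR-seq lung 1 the median log2 ratio went from -0.36 without RNA through -0.06, 2.23, 4.11 and 4.45 to 4.20 in the group with the most RNA, and lung 2 went from -0.28 to 4.12. The ratio levelled off above the second bound and was slightly lower in the highest group than in the one before it. In Damage-seq lung 1 it went from -0.05 through 0.03, -0.07, -0.41 and -0.67 to -0.86, and in lung 2 from -0.01 to -0.89, and did not level off. The TS was called above the NTS in XR-seq for 1.68% of genes without RNA and 89.4% of the highest group, and called below it in Damage-seq for 2.52% and 54.74%.

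The strands were also compared one at a time. Per 1000000 reads and 1000 GG, the median gene without RNA had 0.20 TS and 0.33 NTS reads in XR-seq lung 1, and the median gene of the highest group had 42.4 and 1.92. Both strands were thus higher with more RNA, the TS far more than the NTS. In Damage-seq lung 1 the NTS stayed level, at 9.28 without RNA and 8.70 in the highest group, and the TS was 9.10 and 4.59. Damage-seq lung 2 gave 8.84 and 9.37 on the NTS and 9.01 and 4.85 on the TS.

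**Figure D4:**
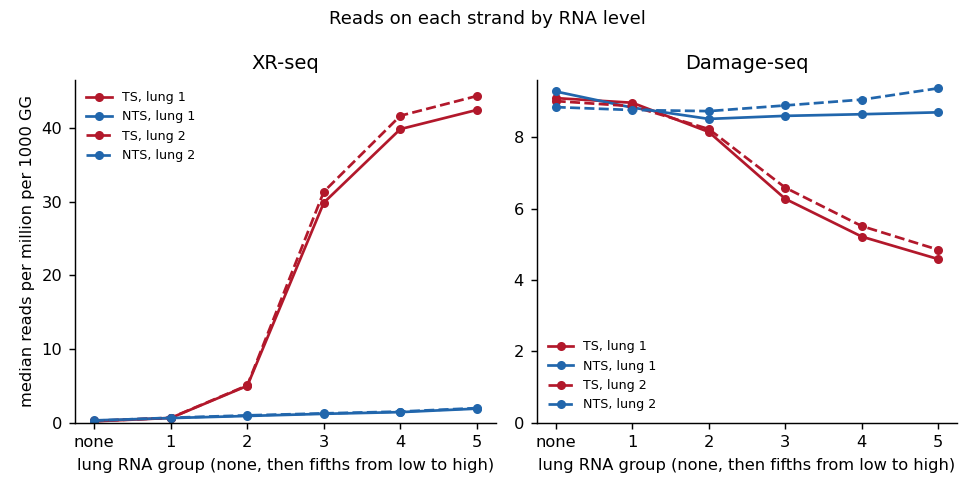
Reads per 1000000 reads and 1000 GG of the median gene on the TS and NTS in groups of genes by lung RNA level, for each lung library, with the groups on the x axis. In XR-seq the TS climbs from 0.20 to 42.4 in lung 1, and in Damage-seq the TS drops from 9.10 to 4.59 in lung 1 while the NTS stays between 8.51 and 9.28.

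The ratios and the share of genes called differed with gene length. Genes under 5 kb had a median XR-seq ratio in lung 1 of 1.79 and genes of 50 to 100 kb one of 4.15. Genes over 300 kb, which were fitted only when no length limit was set, had 2.79. Among genes with at least 1 RPKM the values lay closer, at 2.88, 4.72 and 4.18. The same groups had -0.17, -0.36 and -0.08 in Damage-seq lung 1, and -0.43, -0.57 and -0.18 with at least 1 RPKM. The share with the TS below the NTS in Damage-seq was 7.02% under 5 kb and 46.1% at 50 to 100 kb, and the mean Damage-seq count per gene was also higher in longer genes.

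The gene lists described next were counted without a set test, beside 60.6% of all genes for the TS above the NTS in XR-seq and 28.2% for the TS below the NTS in Damage-seq. Calls were more frequent in genes with more RNA. The 2 shares were 88.92% and 47.37% in the RNA group from 5.88 to 15.1 RPKM, and 89.4% and 54.74% in the highest group. Lists with a median RNA in those groups are to be read beside these shares. Whether a list differed from genes of like RNA was not tested. In Damage-seq the list counts depended on the tool: DESeq2 called 6 p53 target genes where edgeR called 14, 7 nucleotide excision repair genes instead of 15, 11 proteasome subunits instead of 22, 11 respiratory chain genes instead of 26 and 1 ribosomal protein gene instead of 8. All 23 p53 target genes tested had the TS above the NTS in XR-seq and 14 the TS below in Damage-seq, with median log2 ratios of 4.66 and -0.76 against 3.09 and -0.32 over all genes. Mdm2, the ubiquitin ligase of p53, had 10 TS and 43 NTS reads in Damage-seq lung 1 and 21 and 63 in lung 2, a log2 ratio of -1.61 ± 0.36 (edgeR adjusted p = 0.000131). Cdkn1a, the p53-induced inhibitor of the cell cycle, had XR-seq reads of 3970 against 299 and 2139 against 172. Its RNA stood at 141.5 and 165.3 RPKM after cisplatin and 41.3 in the control mean. Bbc3, a p53 target that promotes apoptosis, was the least asymmetric in repair of the list members named, with 4812 against 2203 and 2936 against 1582, a log2 ratio of 1.16 ± 0.23 that became -1.68 when columns were scaled to the typical gene.

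The repair genes were repaired on the TS, like most genes with as much RNA. Their median RNA was 7.12 RPKM, and 96.67% were called in XR-seq and 50% in Damage-seq. The RNA group around that level had 88.92% and 47.37%. Of 30 nucleotide excision repair genes, 29 were called in XR-seq and 15 in Damage-seq in those directions, with medians of 5.93 and -0.63, the former the highest of the 24 lists. The exception in XR-seq was Pcna, the sliding clamp of gap filling, with 146 against 17 and 136 against 18 (3.28 ± 1.30, edgeR adjusted p = 0.0556). Gtf2h3, a TFIIH subunit, had 3224 against 0 and 1931 against 30. Rad23b, among the strongest in damage above, belongs here too. RNA polymerase II genes gave 19 of 20 in XR-seq and 8 in Damage-seq, proteasome subunits 37 and 22 of 39, respiratory chain genes 65 and 26 of 69, and cytosolic ribosomal proteins 47 and 8 of 58. Ribosomal protein genes had the lowest Damage-seq median of all lists, -1.15, with only 37.5 Damage-seq reads in the median gene. Psmc5, a proteasome ATPase, joined weak repair asymmetry with strong damage asymmetry: 1243 TS and 669 NTS reads, then 924 and 575, in XR-seq, a log2 ratio of 1.02 that became -1.82 on scaling to the typical gene, and 3 against 25 and 5 against 36 in Damage-seq (-2.66, edgeR adjusted p = 5.91e-05).

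Clock and immediate-early genes were counted in the same way. Of 15 core clock genes, 12 were called in XR-seq and 6 in Damage-seq, with Per1 at the front and a median of 297 Damage-seq reads a gene. DESeq2 called 4 of them in Damage-seq. Clock itself had 91 against 195 and 83 against 184 in Damage-seq (-1.09, edgeR adjusted p = 3.11e-07). Its XR-seq ratio was 2.80 ± 0.17, which became -0.038 on scaling to the typical gene. Of 20 immediate-early genes 17 were called in XR-seq and 4 in Damage-seq, where the median gene had 78 reads and DESeq2 called 1. Their XR-seq median of 2.95 was below that of all genes.

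Endothelial genes were asymmetric, 16 of 20 in XR-seq and 8 in Damage-seq (4 by DESeq2), with medians of 3.18 and -0.58 at a median of 95.9 RPKM. These shares, 80% and 40%, were below the 89.4% and 54.74% of the highest RNA group. Several secretory and airway genes were not called with the TS above the NTS in XR-seq. Of 13 alveolar type II genes 6 had the TS above the NTS in XR-seq, and of 8 club and ciliated genes only 1, Tppp3, with 3 on the opposite side. Sftpc, at 15430 RPKM, had 85 TS and 28 NTS reads in XR-seq lung 1 and 26 and 30 in lung 2 (0.92 ± 1.17, edgeR adjusted p = 0.526). Scgb1a1, the secreted protein of club cells and at 98930 RPKM the most expressed gene of these lists, had 0 and 29, then 4 and 43 (-4.33 ± 1.98, edgeR adjusted p = 0.0952). Sftpb, the surfactant protein that spreads the lipid film, was called on the opposite side with 61 and 640, then 62 and 480 (-3.21 ± 0.61, edgeR adjusted p = 0.00187), and Usp39, read from the other strand, ends 4.31 kb past it. Muc5b, an airway mucin, had 127 and 2368, then 39 and 1803 (-5.03 ± 0.98, edgeR adjusted p = 0.00225) at 7.82 RPKM, with Tollip 1.73 kb past its end. Sftpc and Scgb1a1 had only 169 and 76 XR-seq reads in lung, so their ratios are not resolved. Averaged over the other organs, the XR-seq ratios of Sftpb, Muc5b and Scgb1a1 were also below 0, at -4.185, -5.70 and -4.83. Ager, the receptor that marks alveolar type I cells, had 972 and 401, then 668 and 271 (0.77 ± 0.42, edgeR adjusted p = 0.145), at 1194 RPKM. Lpcat1, which makes surfactant lipid, had the highest XR-seq ratio named among alveolar type II genes, with 12465 against 83 and 8936 against 156 (6.46 ± 0.39, edgeR adjusted p = 4.69e-06).

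Genes of other organs and of immune cells were counted next. Of 9 liver, kidney and pancreas genes 0 were called in either assay by edgeR, with 0 at an unadjusted p under 0.05 and 0 by DESeq2, and with medians of -0.20 and 0.03. Of 75 olfactory receptor genes, out of 644 listed, 6 had the TS above and 10 the TS below in XR-seq, with medians of -0.86 in XR-seq and 0.03 in Damage-seq. Only those 75 reached 20 reads in each assay, so they do not stand for the family. B cell genes (8 tested, XR-seq median 0.10), T and NK cell genes (11 tested, 0.09) and macrophage and neutrophil genes (11 tested, 1.73) had 1, 3 and 2 members with the TS above, and Csf1r, the growth factor receptor of macrophages, was on the opposite side in both assays. Its XR-seq reads were 469 and 1486, then 410 and 1045 (edgeR adjusted p = 0.0214), its Damage-seq ratio was 0.50 (edgeR adjusted p = 0.0487, not called by DESeq2), and 873 bases of an opposite-strand gene overlap it. Among the remaining lists, mesenchymal and matrix genes gave 8 of 16 above and 2 below in XR-seq, keratin genes 4 and 1 of 26, neuronal genes 2 and 1 of 12, cardiac muscle genes 1 and 1 of 7, germ cell genes 1 and 2 of 9, replication-dependent histone genes 3 and 0 of 9, alveolar type I genes 4 and 0 of 8, and vomeronasal receptor genes 0 and 0 of 10 by edgeR (1 at an unadjusted p under 0.05 and 2 by DESeq2).

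Against the mean of kidney, liver and spleen, the difference of the ratio was tested within the same fit. In XR-seq 1294 genes (7.93%) had a higher ratio in lung and 169 (1.04%) a lower one by edgeR. With every column scaled to the typical gene the balance turned to 276 higher and 405 lower. Without either lung library no gene passed in XR-seq (0 and 0), although 1757 higher and 250 lower genes had an unadjusted p under 0.05 without lung 1, and 2709 and 492 without lung 2. Without XR-seq kidney 1, whose low counts came in the coarsest steps, 2440 and 345 genes passed. In Damage-seq 48 genes (0.294%) had a higher ratio in lung and 96 (0.588%) a lower one. DESeq2 gave 0 and 12 there, with 351 and 292 at an unadjusted p under 0.05.

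Several of the largest differences in repair went with a difference in RNA level. Ip6k3, an inositol hexakisphosphate kinase, had 2377 against 24 and 1322 against 46 in lung. Its log2 ratio was 5.66 in lung and 0.37 on average in the other organs, a difference of 5.28 ± 0.81 (edgeR adjusted p = 0.0155), with RNA of 3.71 RPKM in lung and at most 0.443 elsewhere. Col6a2, a collagen VI chain, was at 5.51 and 1.67, with spleen alone at 4.19. Its RNA was 15.0 RPKM in lung and at most 1.98 elsewhere. Prrt4 (3.45 against -0.90) and Ace3 (4.30 against 0.06) differed likewise. Gpr108 was at 7.35 against 2.82, but spleen alone was at 5.79. Its RNA was 20.3 RPKM in lung and 18.5 in spleen. Wnt2b, a lung-forming Wnt ligand, was below 0 in lung too, at -1.05 against -5.62. On the other side, Tmprss6, a liver protease of iron control, was at -5.23 in lung and 2.11 in liver. Kidney (-1.85) and spleen (-3.34) were below 0 as well. Tmprss6 differed from the mean of the other organs by -4.20 ± 0.63 (edgeR adjusted p = 0.0146). Its lung reads were 31 against 1952 and 59 against 1429, its RNA was 0.177 RPKM in lung and 175.7 in liver, and the expressed gene Kctd17 lies 0.364 kb past its end on the other strand. Sytl1, Crocc, Plekhg6 and Pde6c differed by less, and Crocc, a ciliary rootlet protein, still had the TS far above in lung, with 6737 against 1570 and 4745 against 1108.

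Some endothelial genes differed between lung and the other organs. Of the 20 tested, 5 had a higher XR-seq ratio in lung (Acvrl1, Eng, Egfl7, Nos3 and Plvap, against 7.93% of all genes) and 4 a lower Damage-seq ratio (Acvrl1, Eng, Cdh5 and Calcrl, against 0.588%), and 2, Acvrl1 and Eng, passed in both. The XR-seq difference was above 0 in 17 of the 20 and in 11077 of all 16323 genes, and the Damage-seq difference was below 0 in 19 of the 20 and in 7283 of all genes. The median differences were 1.20 and -0.45, against 0.53 and 0.05 over all genes. Eng, the endoglin co-receptor of the BMP pathway, had Damage-seq reads of 42 against 113 and 69 against 159 in lung, and log2 ratios of -1.41 in lung, -0.01 in kidney, -0.23 in liver and -0.10 in spleen. The difference from the other organs was -1.31 ± 0.24 (edgeR adjusted p = 0.000226). Acvrl1, the receptor that endoglin assists, had 25 against 58 and 36 against 148, a difference of -1.96 ± 0.32 (edgeR adjusted p = 1.32e-05), and its XR-seq reads were 4681 against 638 and 3130 against 509. Cdh5, the cadherin of vessel junctions, differed by -1.04 ± 0.22, and Calcrl, the adrenomedullin receptor, by -1.05 ± 0.22. Pecam1, a vessel surface protein, had RNA of 120.4 and 126.9 RPKM in lung against 5.70 to 35.0 in the other organs. The share of vessel cells and the activity per cell cannot be told apart. Acvrl1, Eng, Cdh5, Egfl7, Nos3 and Plvap overlap an annotated opposite-strand gene. In a fit of genes without such an overlap, 0 of the 12 remaining members passed in XR-seq by edgeR and 1, Calcrl, in Damage-seq, with 3 higher in XR-seq at an unadjusted p under 0.05. Without lung 1, 0 passed in XR-seq (7 higher at an unadjusted p under 0.05) and 5 in Damage-seq, and without lung 2, 0 (6 unadjusted) and 2. DESeq2 on all 20 gave 8 in XR-seq and 2 in Damage-seq.

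**Figure D5:**
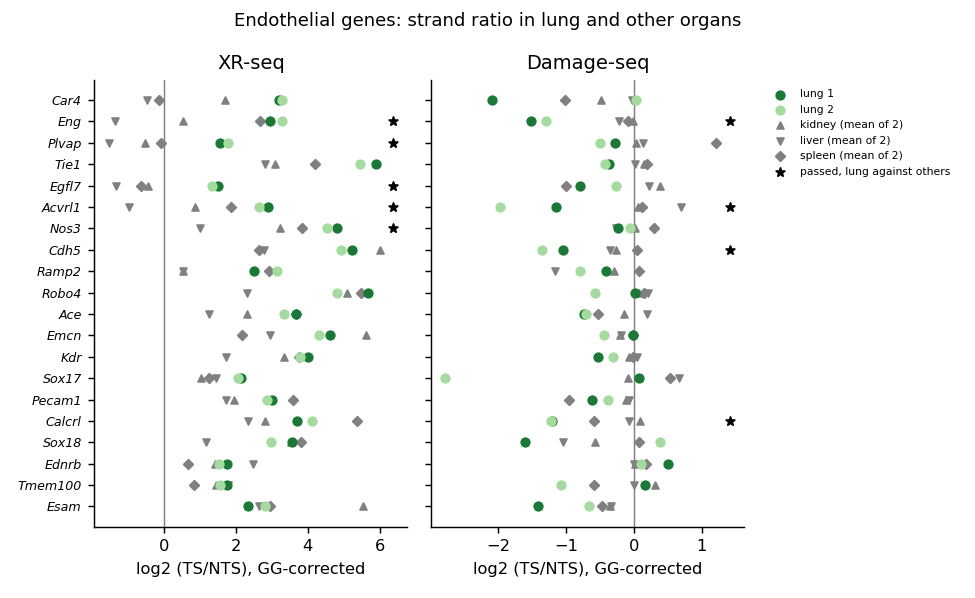
Log2 TS/NTS of 20 endothelial cell genes in XR-seq and Damage-seq. Green points are the 2 lung libraries, grey points the mean of each other organ, and stars mark genes whose ratio in lung differed from the other organs in the edgeR test (5 in XR-seq and 4 in Damage-seq).

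Beyond that list, Damage-seq differences were picked after their values had been seen, from 36 lower and 21 higher protein-coding genes with at least 200 reads and no overlapping gene. Trim16, a ubiquitin ligase, had 27 against 95 and 36 against 122 in lung, at -1.74 against -0.27 in the other organs, with RNA of 34.7 RPKM against at most 2.81. Dpysl2, a microtubule regulator, was at -1.64 against -0.29, Adcy4, an adenylyl cyclase, at -1.19 against 0.14, and Anxa3, an annexin, at -1.11 against 0.07, each with more RNA in lung than elsewhere. From the lists, Eln, the elastin gene, which overlaps an opposite-strand gene over 282 bases, was at -0.84 against 0.09, and the type I cell genes Cav1 and Clic5 at -1.51 against 0.17 and -0.86 against -0.28. Cav1 is covered by an opposite-strand gene over its whole length. In the other direction, Otud4, a deubiquitinase, was at -0.58 in lung and -1.95 elsewhere, and Wdr75, a factor of ribosome assembly, at -0.31 and -1.77. The assays went apart for Otud4, whose XR-seq ratio was also higher in lung, 4.83 against 3.145 (edgeR adjusted p = 0.0388). Its RNA was 12.5 RPKM in lung and 5.39 to 15.8 elsewhere, and that of Wdr75 7.19 and 4.07 to 11.3. In the other lists, members with a higher XR-seq ratio in lung than the mean of the other organs were counted beside 7.93% of all genes. They were 6 of 30 nucleotide excision repair genes (Ercc1, Gtf2h1, Xab2, Lig3, Ercc4 and Ercc3), 8 of 69 respiratory chain genes and 3 of 15 clock genes (Hlf, Per2 and Cry2). Further ones were 3 of 39 proteasome genes, 2 of 20 RNA polymerase II genes, 1 of 58 ribosomal protein genes (Rpl11) and 1 of 13 alveolar type II genes (Lpcat1). No list member had a lower ratio by edgeR. Higher than the mean did not always mean higher than every organ. Per2 was at 4.55 in lung and 5.15 in spleen, and Psmd3 at 5.48 and 5.54. None of these calls passed without either lung library.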

How the data were processed

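Per the labels and the paper's methods, the authors used cutadapt for trimming, BWA for alignment to mm10 and Picard against duplicates, selected reads by a GG where the adduct should be, and deposited raw read counts per gene on the TS and NTS. RNA-seq reads were aligned with STAR and counted with featureCounts, and the authors deposited raw counts. No earlier step was repeated. Batches are not given in the sources used here.

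Gene positions and GG counts came from GENCODE M21 on GRCm38. Genes under 100 kb, with at least 10 GG per strand and 20 lung reads in each assay, were kept. edgeR 4.0.16 in R 4.3.3 (glmQLFit, glmQLFTest) fitted the 8 libraries of an assay as 16 strand columns, with 1 term per library, so that the strands of a library were paired, strand within organ, and an offset of the log library total plus the log GG count. Adjusted p-values (Benjamini-Hochberg) under 0.05 over all genes tested were called. The fit was tested on simulated data with 50 changed genes of each size. At a log2 strand change of 1 in lung, 0 were called in XR-seq and 29 in Damage-seq. At 2 these were 7 and 44, and at 3 they were 23 and 46. With every gene at the median lung ratio, 82.49% were called in XR-seq and 4.34% in Damage-seq. A gene not called is therefore not shown to have equal strands. Per-library ratios used a pseudocount of 1 read. RPKM is per kb of exon, as a mean of the 2 cisplatin lung samples. Other steps ran in Python 3.11.15 (scipy 1.17.1, numpy 2.4.6, pandas 2.3.3). At 37 to 62 Damage-seq reads per strand in the median gene, counting error limits single genes, and PCR copies are not independent molecules.

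Genes were named by fixed rules from protein-coding genes with no overlapping opposite-strand gene: the 10 highest called XR-seq ratios (at least 1000 reads, 20 on the NTS), the 10 lowest called Damage-seq ratios (at least 200 reads), the 6 smallest ratios in each assay (the 25% with the most XR-seq reads per GG, or at least 400 Damage-seq reads), the 6 lowest called XR-seq ratios, the 6 best over both assays, the 6 largest differences from the other organs in each direction, and from each of 24 lists the members with the highest and lowest XR-seq ratio and the most RNA. 1 gene that these rules name is not reported here. The genes, lists and tests were chosen with earlier results of these data known. Alternatives were another scaling, other read, length and overlap filters, no GG offset, no block, the lung libraries alone, a test against log2 0.4, DESeq2 1.42.0, control RNA, a pseudocount of 0.1, leaving out each lung library and, chosen after seeing the data, leaving out kidney 1 of XR-seq. Labels of RNA-seq lung and spleen had been corrected by the submitters and were used as they stand.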

Additional observations from a re-analysis of the deposited data

Results flagged for a closer look

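The results below were singled out because the strand ratio in lung differed from the mean of kidney, liver and spleen in a test of the difference itself (edgeR quasi-likelihood, Benjamini-Hochberg adjusted p under 0.05). In XR-seq 1294 genes had a higher and 169 a lower log2 TS/NTS in lung (276 and 405 with every column scaled to the typical gene), and in Damage-seq 48 had a higher and 96 a lower one. The named genes with a higher XR-seq ratio in lung differed by 5.28 (Ip6k3), 4.56 (Wnt2b), 4.52 (Gpr108), 4.35 (Prrt4), 4.24 (Ace3) and 3.84 (Col6a2) on the log2 scale. The named genes with a lower ratio differed by -4.20 (Tmprss6), -3.63 (Sytl1), -2.79 (Crocc), -2.76 (Plekhg6) and -2.66 (Pde6c). All 11 kept their direction without either lung library, and none of the 11 passed the adjusted threshold in those fits, in which 0 genes passed in all.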

How the results depend on the processing

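Scaling every strand column to the typical gene gave: XR-seq lung 4891 above and 3474 below, Damage-seq lung 2168 and 2127, XR-seq against the other organs 276 higher and 405 lower. It also turned the sign of Ly6e (-2.79), Bcs1l (-2.78), Traf4 (-2.70), Mamdc4 (-2.67), Ager (-2.07), Bbc3 (-1.68), Clock (-0.038), Polr2l (-0.71), Atp5j2 (-2.11), Cox6a1 (-0.20), Psmc5 (-1.82) and Hist1h1c (-0.57) in XR-seq and of Cnga3 (0.41) in Damage-seq. That scaling uses a trimmed mean over genes. It moves the typical ratio towards 0 by construction, though the median ratio need not reach 0. With at least 200 reads in each assay, XR-seq gave 5535 above and 427 below and Damage-seq 116 above. Without genes that overlap an opposite-strand gene, 9555 genes were tested: XR-seq 5871 above and 286 below, Damage-seq 90 above and 2644 below, both assays 2549, and against the other organs 289 higher and 21 lower in XR-seq and 29 and 42 in Damage-seq. Of the XR-seq calls against the other organs, 659 higher and 51 lower ones were still tested there, and the cause of the loss among them was not tested. The lung libraries alone gave 137 Damage-seq genes above, and a test against log2 0.4 gave 106. DESeq2 gave 45 above and 2627 below in Damage-seq, and against the other organs 2711 and 520 in XR-seq and 0 and 12 in Damage-seq. The cause of the differences between the tools was not tested.

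The libraries' strands are paired by construction. With no replicate block, XR-seq lung gave 10233 above and 1235 below and Damage-seq lung 211 above and 4240 below, while XR-seq against the other organs gave 2485 higher and 371 lower and Damage-seq 17 and 44. Leaving out each lung library in turn gave 8042 to 8502 above and 562 to 726 below in XR-seq, 229 to 233 above and 3247 to 3634 below in Damage-seq, 2942 to 3278 in both assays, 0 in XR-seq against the other organs in either direction, and 53 to 71 higher and 64 to 104 lower in Damage-seq. In these fits the lone lung library is assumed to vary like the other organs. Without kidney 1, XR-seq lung gave 10634 above and 1358 below, and against the other organs 2440 and 345.

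The mean of the lung medians in XR-seq was 3.55 without overlapping genes and 3.88 with at least 200 reads. That in Damage-seq was -0.37 without the GG offset, -0.29 with all lengths, -0.35 without overlapping genes and -0.40 with at least 200 reads. Genes without RNA had an XR-seq median of -0.38 with control RNA, and genes with the most RNA a Damage-seq median of -0.91 with a pseudocount of 0.1. Medians of 11 of the 24 lists changed sign in 28 cases over 9 settings, none of them with a reported median beyond 1.64 in size. The scaling to the typical gene, which shifts every ratio, was left out of that count. Damage-seq depth limits single short genes.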
